A study of Mus musculus with 12 samples.

Results

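The genes described here are the nuclear genes of respiratory complexes II, III and IV in the liver of tumour-bearing mice. They were taken by symbol: protein-coding genes whose symbol starts with Sdh, with Uqcr, or with Cox and a digit, with at least 10 counts summed over 12 libraries. Of 55421 genes in the table, 43 matched by symbol and 39 held enough counts. Cox6a2 held 4 counts in all, Cox8b held 1, and Cox7b2 and Cox8c held 0. The 39 comprise 22 ubiquitous subunits (4 of complex II, 8 of complex III and 10 of complex IV), tissue-restricted isoforms, a supercomplex factor and assembly factors. 37 of the 39 passed the low-count filter and were tested; Cox4i2 (15 counts) and Cox6b2 (53 counts) were not.

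All livers came from wild-type (WT) mice that carried an orthotopic tumour of E0771, a mouse mammary carcinoma line, implanted in the mammary fat pad. Housing was at 6 °C for libraries 1 to 4, at 22 °C for libraries 5 to 8 and at 29 °C for libraries 9 to 12, after acclimatisation to that temperature. Livers were labelled day 21, and no tumour-free group was analysed here. Ordinary animal rooms are kept at 22 °C, and mice are close to thermoneutral at 29 °C. The labels mention BALB/c as well as C57BL/6J mice, tie no library to either strain, and give no age. Nothing in them says that every library is a separate animal, so p-values measure only the spread between libraries, which may be technical. Sequencing libraries were made from total RNA that had been depleted of ribosomal RNA.

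Complex II, succinate dehydrogenase, oxidises succinate to fumarate and passes the electrons to ubiquinone. Complex III takes electrons from ubiquinol to cytochrome c while pumping protons, and complex IV, cytochrome c oxidase, passes them to oxygen. Complex II is wholly nuclear-encoded, whereas the catalytic core of complex IV and cytochrome b of complex III are made from mitochondrial DNA, so nuclear and mitochondrial transcripts must both be supplied. In liver these complexes serve the oxidation of fatty acids and amino acids.

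Total counts ran from 7615585 to 19001126 per library, so 3 counts, the limit that a count of 0 allows, correspond to 0.158 to 0.394 CPM for counting error only. Levels below are CPM, counts scaled to a common library total, with TMM scaling of library sizes. Hepatocyte markers summed to 68936 to 178494 CPM per library (7 of 8 listed genes found). Libraries 1 (6 °C), 7 and 8 (22 °C) and 9 (29 °C) stand apart: each held transcripts of H2-Ea-ps (11.8 to 17.1 CPM before TMM scaling), of which the remaining 8 had 0 counts. Libraries 5 and 6 (22 °C) and 3 (6 °C) held the least Gm26917, a ribosomal-RNA-related transcript, between 0.605% and 1.66% of their counts, where the remaining 9 held between 4.03% and 8.70%. Library 11 held 409 CPM of intestinal epithelium markers against 7.94 to 23.2 CPM in the others. Results are therefore also given with a term for the 4 H2-Ea-ps libraries, called the split term, and without libraries 3, 5 and 6.

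Transcripts of the 3 complexes stood highest at 6 °C in most cases. Among the 37 tested genes the mean level was highest at 6 °C in 28, at 22 °C in 6 and at 29 °C in 3, and it was lowest at 29 °C in 25 and at 22 °C in 12. No tested gene had its lowest mean at 6 °C (0 of 37). Over all 15006 tested genes the mean was highest at 6 °C in 32.6%, at 22 °C in 31.7% and at 29 °C in 35.7%. It was lowest at 6 °C in 35.5%, at 22 °C in 28.9% and at 29 °C in 35.6%. In a bulk liver sample, fewer cells of a type and less RNA per cell cannot be told apart. Library 4 (6 °C) held the highest level of 16 of the 37 genes, and libraries 11 and 9 (29 °C) held the lowest level of 12 and 10. Over all tested genes 11.1% were highest in library 4, and 5.02% and 11.8% were lowest in libraries 11 and 9.

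**Figure D1:**
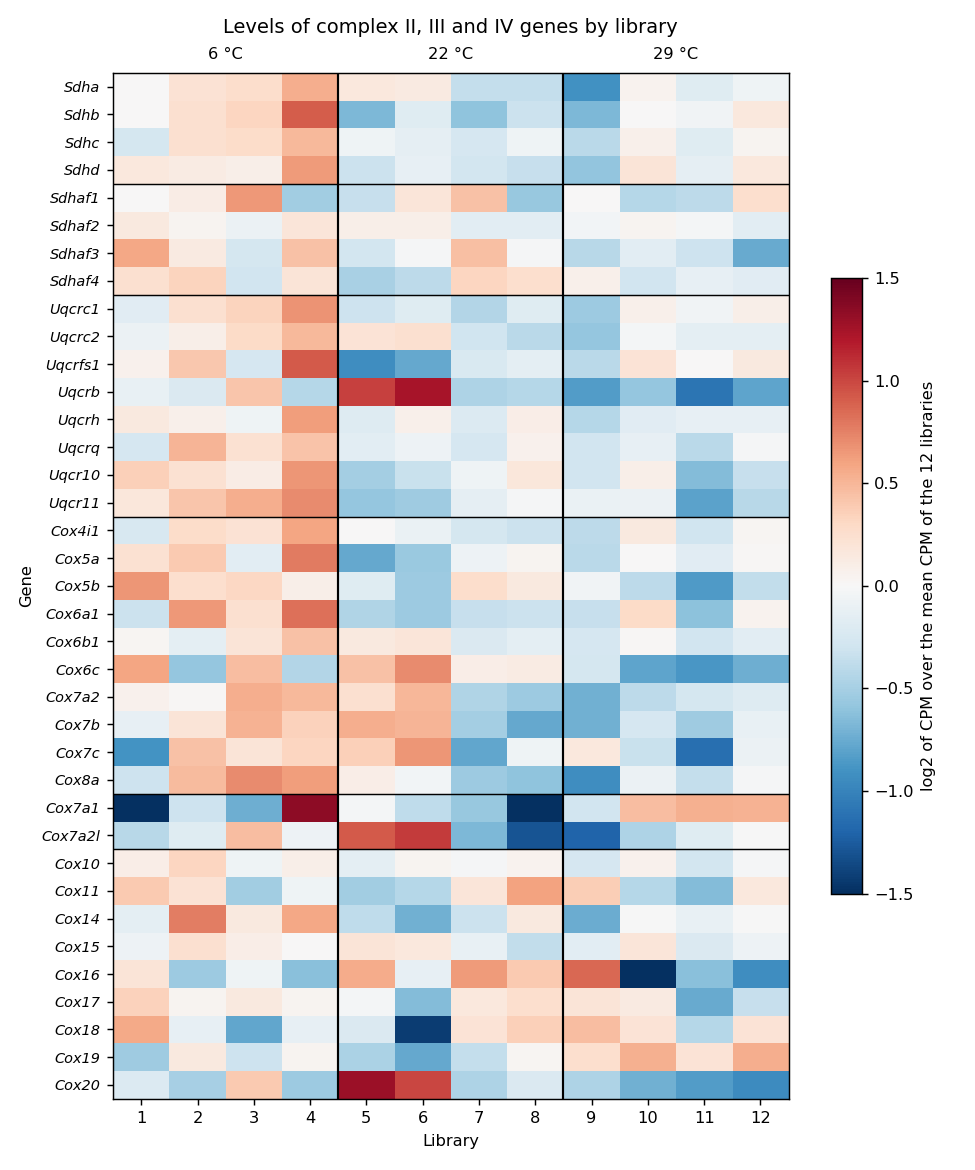
Level of each of the 37 tested genes (rows) in each of the 12 libraries (columns), as log2 of CPM over that gene's mean over the libraries, with colours held at 1.5 in either direction. Horizontal lines part complex II subunits, complex II assembly factors, complex III subunits, complex IV subunits, Cox7a1 with Cox7a2l, and complex IV assembly factors. The 6 °C columns are mostly red, library 4 most of all, and Uqcrb, Cox7a2l and Cox20 are darkest in libraries 5 and 6.

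Summed over subunits, complex II stood at 571, 666, 684 and 876 CPM in libraries 1 to 4 (6 °C), at 557, 580.0, 449.8 and 469 CPM in libraries 5 to 8 (22 °C), and at 350.0, 607, 517 and 585 CPM in libraries 9 to 12 (29 °C). Library 4 was highest and library 9 lowest, and the 6 °C and 29 °C ranges overlapped. The 8 subunits of complex III summed to 798 ± 155 CPM at 6 °C, 581 ± 33.4 CPM at 22 °C and 588 ± 78.4 CPM at 29 °C (SD, n = 4 each). The 10 subunits of complex IV summed to 759 ± 134, 575 ± 74.3 and 542 ± 84.1 CPM in the same order. These sums are descriptions and were not tested. All 39 genes together took 0.165% to 0.284% of the counts of a library.

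**Figure D2:**
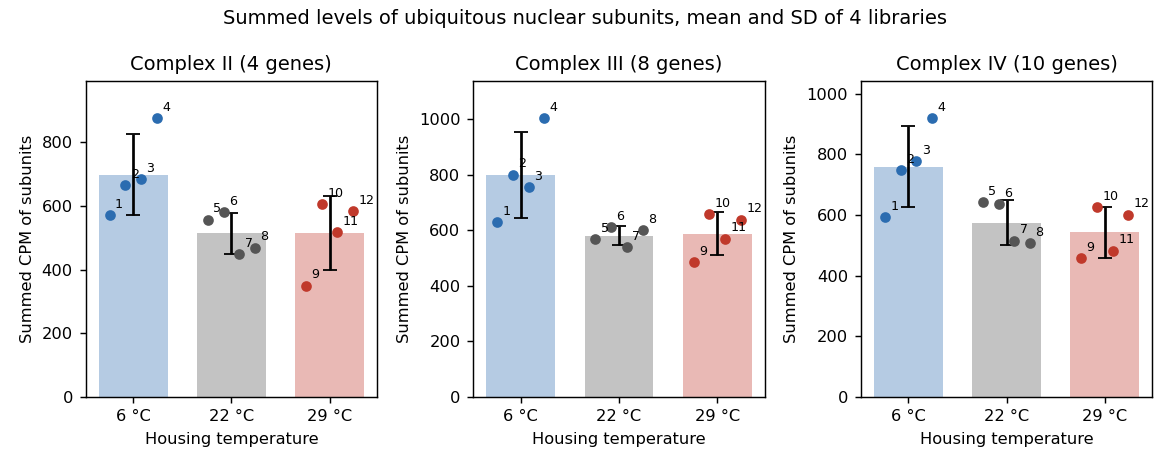
Summed CPM of the ubiquitous nuclear subunits of complex II (4 genes), complex III (8 genes) and complex IV (10 genes) by housing temperature; bars are means and error bars SDs of 4 libraries, and points carry the library number. The 6 °C mean is the highest in each panel, at 699, 798 and 759 CPM, with library 4 on top.

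The warmest housing was compared with the coldest, 29 °C with 6 °C. Of the 37 tested genes 34 had a negative log2 fold change and 3 a positive one, with a median of -0.38 against 0.0005 over all 15006 genes tested. Uqcr11 alone was called, and it fell. Among all tested genes 1.39% were called lower and 1.13% higher (edgeR's quasi-likelihood test, Benjamini-Hochberg adjusted p under 0.05), so 1 call in 37 is near that background. At an unadjusted p under 0.05 there were 17 of 37, 16 of them lower at 29 °C, against 19.4% of all genes in either direction. All 29 °C libraries lay below all 6 °C libraries for Cox5b, Uqcrh, Cox7a2, Uqcr11, Uqcr10 and Uqcrb, and above them for Cox19, where 6.74% of all genes lay wholly below and 6.56% wholly above. Without library 4 the median was -0.31 and still 34 of 37 were negative.

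Uqcr11, a small accessory subunit of complex III, is a minus-strand gene of chromosome 10 (80402997 to 80406830 in GRCm38, ENSMUSG00000020163.12). It stood at 32.8, 38.8, 42.5 and 47.8 CPM in libraries 1 to 4 (6 °C), at 19.5, 20.2, 26.5 and 28.9 CPM in libraries 5 to 8 (22 °C), and at 27.3, 27.5, 16.8 and 21.9 CPM in libraries 9 to 12 (29 °C). The 4 libraries at 6 °C were above all 8 others, and the 22 °C and 29 °C ranges overlapped. Between 29 °C (23.4 ± 5.09 CPM) and 6 °C (40.5 ± 6.31 CPM, SD, n = 4 each) it fell by 0.79 on the log2 scale (SE 0.19, edgeR adjusted p = 0.0459). The call was lost when any of libraries 2, 3, 4, 5, 9, 10, 11 or 12 was left out, and over all alternatives the adjusted p ran from 0.0053 to 0.132. The log2 fold change stayed between -0.88 and -0.66 when each library was left out in turn. Within the H2-Ea-ps libraries it stood at 32.8 CPM in library 1 and 27.3 CPM in library 9, and within the other libraries at 38.8 to 47.8 CPM at 6 °C and 16.8 to 27.5 CPM at 29 °C.

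Promoter sequence is shown for Uqcr11, the gene that was called, and for Sdhd and Cox6a1, which hold matches of both motifs that are best known at genes of the respiratory chain. The motifs searched on both strands were CCGGAAG, bound by GABP and other ETS factors, and GCGCA, any base, GCGC, bound by nuclear respiratory factor 1, and matches are in capitals (CTTCCGG is the ETS motif read on the other strand). Each run is the 250 bases before the RefSeq start on the minus strand of GRCm38.p6, at chr10:80406822-80407071 for Uqcr11, chr9:50603850-50604099 for Sdhd and chr5:115348959-115349208 for Cox6a1.
Uqcr11: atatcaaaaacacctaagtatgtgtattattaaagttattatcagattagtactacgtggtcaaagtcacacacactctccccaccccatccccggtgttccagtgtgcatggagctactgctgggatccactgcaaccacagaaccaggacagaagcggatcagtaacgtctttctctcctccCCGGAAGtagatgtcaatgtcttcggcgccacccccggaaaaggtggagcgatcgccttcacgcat
Sdhd: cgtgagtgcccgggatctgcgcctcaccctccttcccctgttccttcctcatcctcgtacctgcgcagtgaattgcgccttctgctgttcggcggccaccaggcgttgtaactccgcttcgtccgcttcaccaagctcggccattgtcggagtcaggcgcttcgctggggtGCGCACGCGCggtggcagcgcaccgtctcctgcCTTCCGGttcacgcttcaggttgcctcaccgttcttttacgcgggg
Cox6a1: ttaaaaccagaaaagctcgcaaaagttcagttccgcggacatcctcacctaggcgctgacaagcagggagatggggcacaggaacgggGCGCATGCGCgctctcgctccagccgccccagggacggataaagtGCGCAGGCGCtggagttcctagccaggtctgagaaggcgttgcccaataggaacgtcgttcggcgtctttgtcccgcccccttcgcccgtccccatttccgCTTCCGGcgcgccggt
Of the 39 genes, 29 have a RefSeq promoter in the table used. CCGGAAG was found in 11 of their 30 promoters, and in 6.91% of 32851 promoters of the same length, which were not chosen by expression. The 10 genes with a match were Cox10, Cox16, Cox20, Cox6a1, Cox6b1, Sdhaf2, Sdhaf3, Sdhd, Uqcr11 and Uqcrh. The nuclear respiratory factor 1 motif was found in Cox6a1, Sdha and Sdhd, and in 3.74% of all promoters. AAGATGGCG (YY1) and TNAAGGTCA (oestrogen-related receptor) were found in 0 of the 29, and in 0.606% and 1.14% of all promoters. A match is a string of letters in this window and shows no binding.

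The other subunits had smaller or more variable differences between 29 °C and 6 °C. The 4 subunits of complex II all had negative fold changes, from -0.52 to -0.31. Sdha, the flavoprotein that oxidises succinate, stood at 257 ± 66.6 against 364 ± 57.3 CPM (log2 fold change -0.50, edgeR adjusted p = 0.221). Sdhb, the iron-sulfur subunit, had a fold change of -0.52 (adjusted p = 0.2), and the membrane anchors Sdhc and Sdhd of -0.31 and -0.33. All 8 subunits of complex III and all 10 ubiquitous subunits of complex IV were negative too, with medians of -0.44 and -0.58. Uqcr10, another small subunit of complex III, stood at 31.4 ± 6.71 against 48.4 ± 8.39 CPM (-0.63, adjusted p = 0.0906). Cox5b, a matrix-side subunit of complex IV, stood at 9.64 ± 2.12 against 16.0 ± 2.81 CPM (-0.74, adjusted p = 0.0869). Cox8a, a small membrane subunit, stood at 54.1 ± 14.1 against 89.8 ± 24.8 CPM (-0.73, adjusted p = 0.131).

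With the split term in the fit, 8 of the 37 genes were called, all lower at 29 °C than at 6 °C. They were Sdha (-0.53), Uqcrc2 (-0.43), Uqcr10 (-0.63), Uqcr11 (-0.81), Cox5b (-0.74), Cox7a2 (-0.69), Cox7b (-0.64) and Cox8a (-0.72). In that fit 6.23% of all tested genes were called lower. The same fit without library 11 called 5 of the 37. Without libraries 3, 5 and 6 it was 0 of the 37 with no split term, where 0.431% of all genes were called lower, and the median over the 37 was -0.39.

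Assembly factors found by symbol had medians nearer 0 than the subunits of their complex. Of the 4 complex II factors, none was called and the median of 29 °C over 6 °C was -0.25. Sdhaf2, which attaches the flavin to Sdha, stood between 23.0 and 29.0 CPM in all 12 libraries. Sdhaf3, which serves the maturation of Sdhb, stood at 3.05 ± 0.508 against 4.78 ± 1.17 CPM (-0.65, edgeR adjusted p = 0.196). Of the 9 complex IV factors none was called, and the median was -0.13. Cox10 and Cox15, which make haem A for complex IV, had fold changes of -0.23 and -0.13. Cox11 and Cox17, which deliver copper, had -0.12 and -0.30. Exons of Tom1l1 on the opposite strand overlap 48.3% of the exon bases of Cox11, so its level is uncertain. The same holds for Sdhaf1 (69.6% overlapped on the opposite strand) and Cox16 (56.8% on the same strand).

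Cox19, a copper-handling factor of the intermembrane space (chromosome 5, 139336189 to 139351418, minus strand), had a positive fold change, as Cox7a1 and Cox18 did. It stood at 12.5, 20.1, 14.6 and 18.7 CPM in libraries 1 to 4, at 13.0, 10.6, 14.2 and 18.4 CPM in libraries 5 to 8, and at 21.6, 26.3, 20.8 and 26.4 CPM in libraries 9 to 12. The 4 libraries at 29 °C were above all 8 others, and the 6 °C and 22 °C ranges overlapped. The log2 fold change was 0.53 for 29 °C over 6 °C (SE 0.20, edgeR adjusted p = 0.153) and 0.75 for 29 °C over 22 °C (SE 0.20, adjusted p = 0.163), and neither passed. Over the alternatives these adjusted p-values ran from 0.0801 to 0.323 and from 0.00588 to 0.613. Both comparisons share the 29 °C libraries. Cox19 was chosen for this description after its values were seen.

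**Figure D3:**
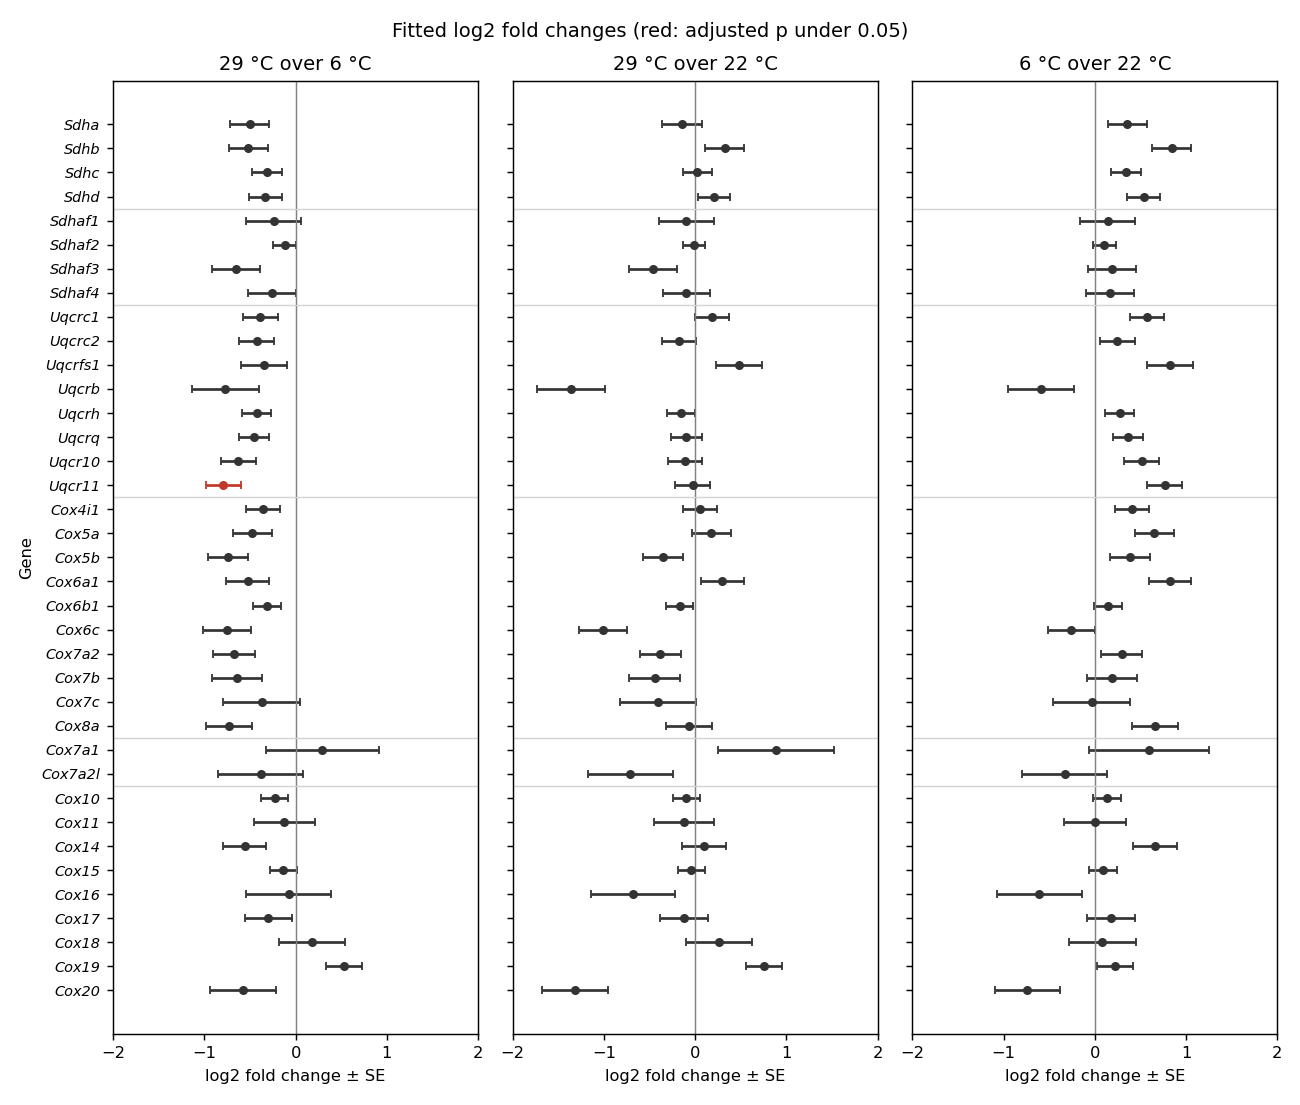
Fitted log2 fold change with its SE for each of the 37 tested genes in the 3 comparisons. Most points lie left of 0 for 29 °C over 6 °C, with Uqcr11 (red) alone past the adjusted threshold, and right of 0 for 6 °C over 22 °C, while Uqcrb, Cox20 and Cox6c lie below -1 for 29 °C over 22 °C.

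Between 29 °C and 22 °C the genes split in sign. Of 37, 25 had a negative and 12 a positive fold change, with a median of -0.10 against -0.0037 over all genes. edgeR called 0 of the 37 and 0% of all 15006 genes, and 4 of the 37 had an unadjusted p under 0.05 against 14.9% of all genes. DESeq2, fitted without the low-count filter, called 4 of the 39 and 2.1% of the 14649 genes to which it gave an adjusted p. All 29 °C libraries lay below all 22 °C libraries for Uqcrb, Cox20 and Cox6c and above them for Cox19, against 3.79% of all genes wholly below and 3.89% wholly above. With the split term Uqcrb, Cox20 and Cox6c were called lower, where 1.88% of all genes were. The same fit without library 11 called 0 of the 37, with adjusted p-values of 0.072, 0.0973 and 0.103 for Uqcrb, Cox20 and Cox6c, and 100 genes in all. Without libraries 3, 5 and 6 the median turned to 0.01, with 18 negative and 19 positive and 0 called.

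Uqcrb, the ubiquinone-binding subunit of complex III, lies on chromosome 13 from 66900617 to 66905378 on the minus strand. It stood at 7.20, 6.65, 10.3 and 5.77 CPM in libraries 1 to 4 (6 °C), at 15.8, 18.3, 5.62 and 5.75 CPM in libraries 5 to 8 (22 °C), and at 4.32, 5.17, 3.62 and 4.47 CPM in libraries 9 to 12 (29 °C). Libraries 5 and 6 were far above the rest, library 3 came next, and the 29 °C libraries were the lowest 4 of the 12. The log2 fold change of 29 °C over 22 °C was -1.36 (SE 0.37, edgeR adjusted p = 0.169, range over the alternatives 0.00136 to 0.705). It was -0.37 without libraries 3, 5 and 6. Of 29 °C over 6 °C it was -0.77 (adjusted p = 0.274). Among the H2-Ea-ps libraries Uqcrb stood at 5.62 and 5.75 CPM at 22 °C and 4.32 CPM at 29 °C, and among the others at 15.8 and 18.3 CPM against 3.62 to 5.17 CPM.

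Cox20, a chaperone of the mitochondrially made subunit that binds cytochrome c in complex IV, lies on chromosome 1 from 178319130 to 178322693 on the plus strand. It stood at 8.57, 7.04, 13.0 and 6.78 CPM in libraries 1 to 4, at 24.1, 19.9, 7.22 and 8.51 CPM in libraries 5 to 8, and at 7.18, 6.03, 5.53 and 5.15 CPM in libraries 9 to 12. As for Uqcrb, libraries 5, 6 and 3 were the highest 3. The log2 fold change of 29 °C over 22 °C was -1.31 (SE 0.36, edgeR adjusted p = 0.171, range over the alternatives 0.00118 to 0.685), and it was -0.40 without libraries 3, 5 and 6. 91.1% of the exon bases of Cox20 overlap exons of Hnrnpu on the opposite strand, and the use of strand in counting is not given in the sources used here, so reads of the 2 genes cannot be told apart. Hnrnpu, an abundant nuclear RNA-binding protein gene, stood at 277, 212, 240 and 213 CPM in libraries 1 to 4. It stood at 302, 283, 287 and 292 CPM in libraries 5 to 8, and at 286, 193, 209 and 212 CPM in libraries 9 to 12. These levels are far above those of Cox20, and the part of Hnrnpu reads in the Cox20 counts was not tested.

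Cox6c, a small membrane subunit of complex IV (chromosome 15, 35925886 to 35938246, minus strand), was also chosen after its values were seen. It stood at 36.7, 16.3, 33.8 and 18.0 CPM in libraries 1 to 4, at 33.1, 40.1, 26.2 and 26.7 CPM in libraries 5 to 8, and at 20.3, 14.1, 13.3 and 14.7 CPM in libraries 9 to 12. The 22 °C libraries were all above the 29 °C libraries, and the 6 °C libraries fell into a high pair (1 and 3) and a low pair (2 and 4). The log2 fold change of 29 °C over 22 °C was -1.01 (SE 0.26, edgeR adjusted p = 0.163, range over the alternatives 0.00622 to 0.613). It was -0.76 without libraries 3, 5 and 6. Of 29 °C over 6 °C it was -0.76 with all libraries (adjusted p = 0.133). Exons of Vps13b on the opposite strand overlap 7.01% of the exon bases of Cox6c, and the use of strand in counting is not given.

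**Figure D4:**
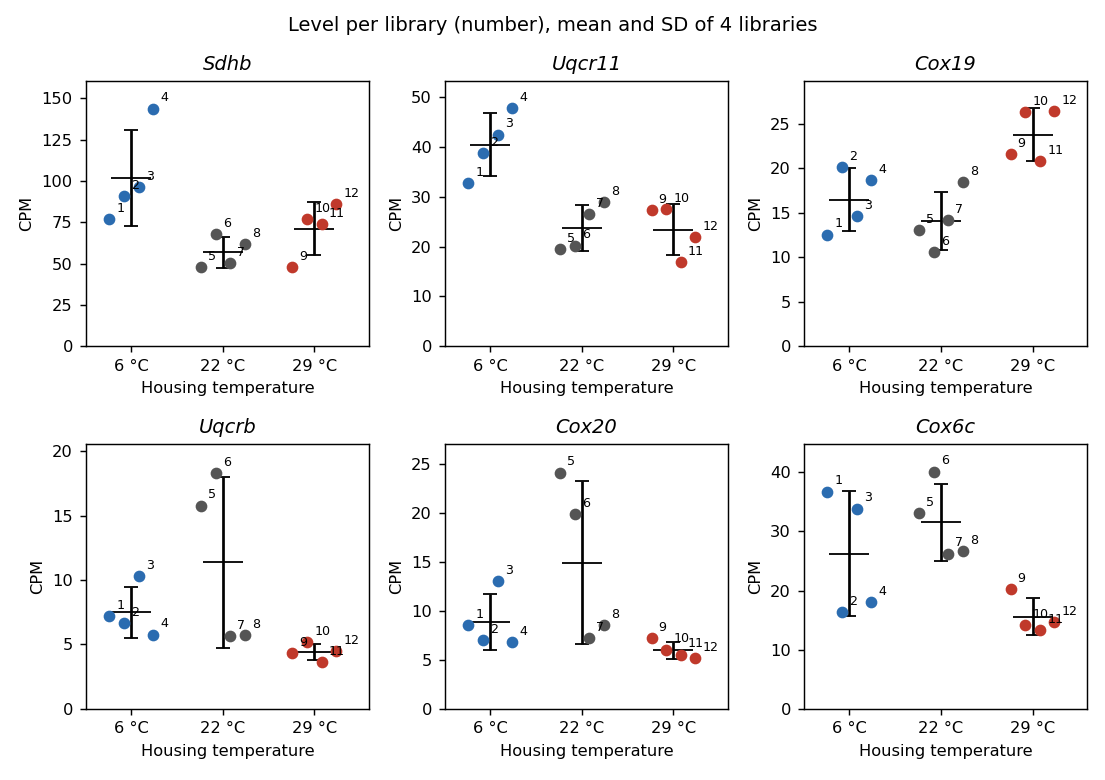
CPM of Sdhb, Uqcr11, Cox19, Uqcrb, Cox20 and Cox6c by housing temperature; each point is a library with its number, the long dash is the mean of 4 libraries and the error bar the SD. Uqcr11 is highest in the 4 libraries at 6 °C (32.8 to 47.8 CPM), Cox19 in the 4 at 29 °C (20.8 to 26.4 CPM), and Uqcrb and Cox20 in libraries 5 and 6.

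The comparison of 6 °C with 22 °C sets cold against ordinary housing. Of the 37 genes 31 had a positive and 6 a negative fold change, with a median of 0.25 against -0.02 over all genes. edgeR called 0 of the 37, where it called 0.0333% of all genes. DESeq2 called Sdhb and Uqcr11, where it called 1.4% of the 11926 genes to which it gave an adjusted p. With the split term edgeR called 0 of the 37 and 0.367% of all genes. At an unadjusted p under 0.05 there were 12 of 37, all higher at 6 °C, against 11.9% of all genes in either direction. All 6 °C libraries lay above all 22 °C libraries for Sdhb, Sdhd, Uqcrc1, Uqcr11 and Cox6a1, against 3.53% of all genes. This comparison shares its 6 °C libraries with that of 29 °C and 6 °C. Without library 4 the median was 0.16.

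Sdhb (chromosome 4, 140961203 to 140979193, plus strand) had the largest fold change of the 37 in this comparison. It stood at 77.1, 90.9, 96.1 and 144 CPM in libraries 1 to 4 (6 °C), at 47.9, 67.7, 50.4 and 61.5 CPM in libraries 5 to 8 (22 °C), and at 48.0, 77.1, 73.9 and 85.7 CPM in libraries 9 to 12 (29 °C). The 6 °C libraries were all above the 22 °C libraries, library 4 furthest, and the 29 °C libraries overlapped both groups. The log2 fold change of 6 °C over 22 °C was 0.84 (102 ± 29.0 against 56.9 ± 9.35 CPM, SE 0.21, edgeR adjusted p = 0.225, range over the alternatives 0.0263 to 0.534). Uqcr11 had 0.77 (SE 0.19, adjusted p = 0.204, range 0.0108 to 0.524). Uqcrfs1, the Rieske iron-sulfur protein of complex III, had 0.83 (adjusted p = 0.268) with overlapping groups. Cox6a1, the non-muscle form of a complex IV subunit, had 0.82 (adjusted p = 0.254). The complex III core protein Uqcrc1 had 0.57 (203 ± 47.1 against 136 ± 11.2 CPM, adjusted p = 0.281).

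Libraries of the 22 °C group did not form a single level. Libraries 5 and 6, without H2-Ea-ps and low in Gm26917, were both above libraries 7 and 8 for 15 of the 37 genes, both below for 12, and mixed for 10. Over all tested genes the shares were 30% both above and 33.2% both below. The mean of libraries 5 and 6 over that of 7 and 8 was 3.82 for Cox7a2l, the factor that joins complexes III and IV into supercomplexes, 3.0 for Uqcrb, 2.79 for Cox20 and 2.23 for Cox7b. It was 0.506 for Cox18, 0.541 for Cox11, 0.604 for Sdhaf4, 0.632 for Uqcrfs1 and 0.640 for Cox5a. Levels in libraries 3, 5 and 6 were above all 9 others for Uqcrb, Cox7b, Cox7a2l and Cox20, and below all 9 others for Sdhaf4. That is 4 and 1 of the 37, against 4.66% of all tested genes above and 4.5% below. Cox7a2l stood at 48.2 and 52.5 CPM in libraries 5 and 6 and 35.1 CPM in library 3, against 10.4 to 25.2 CPM in the other 9. The part of Gm26917, of H2-Ea-ps status and of what they mark in these differences was not tested.

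**Figure D5:**
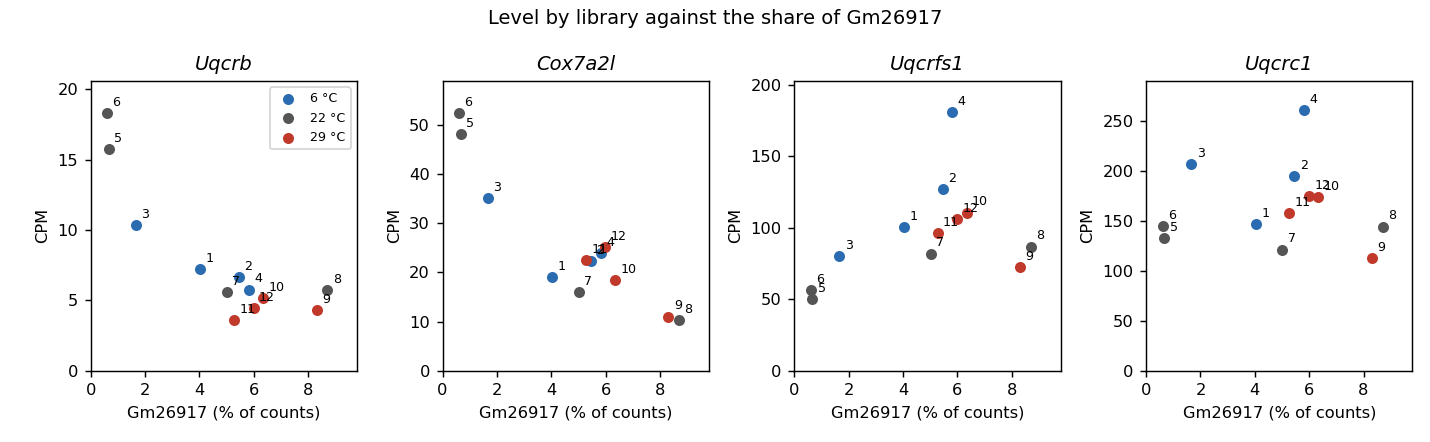
CPM of Uqcrb, Cox7a2l, Uqcrfs1 and Uqcrc1 in each library (numbered, coloured by temperature) against the percent of counts taken by Gm26917. Uqcrb and Cox7a2l are highest in libraries 5, 6 and 3 at the left, Uqcrfs1 is lowest in libraries 5 and 6, and Uqcrc1 shows no such step.

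Within complex III the make-up of the nuclear transcripts differed in the same libraries. Uqcrb made up 2.77% and 2.99% of the summed CPM of the 8 subunits in libraries 5 and 6, and 1.37% in library 3, where the remaining 9 lay between 0.575% and 1.14%. Uqcrfs1 made up 8.80% and 9.21% in libraries 5 and 6, and 10.6% in library 3, where the remaining 9 lay between 14.4% and 18.0%. These shares use the same counts as the levels above and were not tested.

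Subunits of the same complex stood at very different levels per length of their merged annotated exons. That length, 3567 bases for Cox6c and 1587 for Cox5b, can exceed the length of any single transcript. The order below therefore depends on this divisor. Over all 12 libraries and per kilobase of exon, Cox4i1, the largest nuclear subunit of complex IV, stood highest of the 22 ubiquitous subunits at 135 CPM per kb, followed by Cox6b1 at 125 and Cox8a at 108. The lowest 4 were Cox7c at 1.65, Cox6c at 6.86, Cox5b at 7.97 and Uqcrb at 8.85 CPM per kb, and the next was Cox5a at 24.8. All 4 of the lowest, and 5 of the 22 in all, have a near-identical copy elsewhere in the annotation (95% identity over at least 200 bases), mostly processed pseudogenes. The 7 genes with such copies are Uqcrb (3 copies), Cox6c and Cox7b (2 each), and Cox5b, Cox7c, Cox7a2l and Cox20 (1 each). How the authors' counting treated reads that fit several places is not given in the sources used here, so the levels of these 7 are uncertain. The copies themselves held few counts, at most 72 for any of them against 3873 for its parent, Cox7a2l. Of the 7, 6 were higher in both libraries 5 and 6 than in 7 and 8, against 9 of the 29 tested genes that were searched and had no copy. Cox14 had no gene model of identical identifier and was not searched. The part of the copies in this difference was not tested.

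Tissue-restricted isoforms of complex IV stood low, at no more than 1.67 CPM in any library. Cox7a1, a heart and muscle isoform, stood at 0.144, 0.532, 0.397 and 1.67 CPM in libraries 1 to 4, at 0.646, 0.509, 0.447 and 0.224 CPM in libraries 5 to 8, and at 0.540, 0.910, 0.956 and 0.949 CPM in libraries 9 to 12, with overlapping groups. Cox6b2, a testis isoform, stood at 0.0720, 0.266, 0.238 and 0.335 CPM in libraries 1 to 4, at 0, 0.407, 0.575 and 0.448 CPM in libraries 5 to 8, and at 0.926, 0.512, 0.101 and 0.0678 CPM in libraries 9 to 12. Cox4i2, best known from lung, stood at 0.288, 0.532, 0 and 0.167 CPM, then at 0, 0, 0.128 and 0.0747 CPM, and at 0, 0.0569, 0.0503 and 0 CPM, in the same order. Both lie near the level that 3 counts correspond to, and their groups overlap. Summed markers of skeletal and cardiac muscle (9 genes) reached at most 7.39 CPM. Ucp1, which defines brown fat, held 0 counts in all libraries. The other listed brown fat markers held counts: Cidea 14 in all, Elovl3 174, Dio2 244 and Ppargc1a 3685. Without a covariate 0 of them were called in any comparison. With the split term Dio2 was called higher and Ppargc1a lower at 29 °C than at 6 °C. In that fit 949 and 935 of all 15006 tested genes were called higher and lower.

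Some subunits of these complexes carry other symbols or come from mitochondrial DNA. Ndufa4, a complex IV subunit once counted to complex I, fell at 29 °C against 6 °C, from 63.9 ± 4.31 to 42.1 ± 5.01 CPM (-0.60, edgeR adjusted p = 0.0248). It was called with the split term too, but not when libraries 3, 5 and 6 were left out together (adjusted p = 0.0599) or when library 3, 4, 9, 10 or 11 was left out alone, with fold changes of -0.65 to -0.55 when each library was left out. Cyc1, cytochrome c1 of complex III, stood at 75.4 ± 12.8 against 99.3 ± 25.6 CPM (-0.40, adjusted p = 0.435). The mitochondrially encoded core was led by mt-Co1, which stood at 8639, 7948, 17546 and 9880 CPM in libraries 1 to 4, 20435, 23324, 6126 and 7484 CPM in libraries 5 to 8, and 5848, 5439, 5106 and 6221 CPM in libraries 9 to 12. Libraries 5, 6 and 3 were again the highest 3 (29 °C over 6 °C -0.96, edgeR adjusted p = 0.207). Of 29 °C over 22 °C the log2 fold change was -1.34 (adjusted p = 0.198), and mt-Co1 was called lower there with the split term. mt-Cytb, cytochrome b of complex III, had -0.83 (adjusted p = 0.29) and -1.28 (adjusted p = 0.223) in the same comparisons. mt-Co2 held 3 counts in all and mt-Co3 held 0, so their levels are not usable here.

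Of 23 tested assembly factors outside the symbol rule, 1 was called at 29 °C against 6 °C: Cmc1, a copper-linked factor of complex IV, fell by 0.85 on the log2 scale (edgeR adjusted p = 0.0388). The median of the 23 was -0.33, and 21 of them had negative fold changes. In the fit with the split term 3 of the 23 were called lower (Coa5, Cmc1 and Taco1), and without libraries 3, 5 and 6 it was 0. Over all tested genes 1.39% were called lower without a covariate, 6.23% with the split term and 0.431% without libraries 3, 5 and 6. Called higher without a covariate were 1.13%. Of 18 tested nuclear subunits of ATP synthase, 2 fell and 0 rose, Atp5c1 by 0.78 (adjusted p = 0.0464) and Atp5j by 0.48 (adjusted p = 0.0482), and the list median was -0.44. 6 of the 18 were called lower with the split term, and without libraries 3, 5 and 6 Atp5c1 alone was. When each library was left out in turn, the calls of Cmc1 and Atp5c1 were lost in 9 of 12 cases (any of libraries 1 to 5 and 9 to 12), and that of Atp5j in 12 of 12. All 3 kept negative fold changes. Of 13 tested regulators of respiratory gene transcription, Pprc1, a coactivator related to PGC-1alpha, rose by 1.18 (22.9 ± 7.03 to 51.9 ± 4.87 CPM, adjusted p = 0.0145), and it was called without each library in turn (1.02 to 1.39) and without libraries 3, 5 and 6. Ppargc1a, which encodes PGC-1alpha itself, stood at 17.4 ± 3.62 against 30.3 ± 5.12 CPM (-0.80, adjusted p = 0.0606). Ppargc1b stood at 7.83 ± 1.75 against 15.9 ± 4.92 CPM (-1.02, adjusted p = 0.0588). Ppargc1a, Ppargc1b, Gabpa and Tfb1m were called lower at 29 °C than at 6 °C with the split term. In the other 2 comparisons edgeR without a covariate called 0 genes of these 3 lists. With the split term it called Atp5h and Gabpa lower and Pprc1 higher at 29 °C than at 22 °C, and 0 between 6 °C and 22 °C. In that fit 1.88% of all tested genes were called lower at 29 °C than at 22 °C, and 234 of 15006 higher.

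Summed markers of other cells had overlapping ranges between 29 °C and 6 °C. The 9 neutrophil and precursor markers summed to 11.7 to 847 CPM at 6 °C, 324 to 1680 CPM at 22 °C and 498 to 2652 CPM at 29 °C, with library 4 lowest and library 9 highest. All 9 had positive fold changes at 29 °C over 6 °C, and edgeR called 0 without a covariate and Camp and Ly6g higher with the split term. The 8 Kupffer cell and macrophage markers summed to 387 to 732, 323 to 823 and 490 to 1033 CPM in the same order, and the 7 erythroid markers to 114 to 217, 70.3 to 127 and 118 to 473 CPM. All 8 and all 7 also had positive fold changes at 29 °C over 6 °C, with medians of 0.62 and 1.18. Of the 7 hepatocyte markers 3 were positive and 4 negative. Hepatocyte markers summed to 79511 to 120602, 76961 to 178494 and 68936 to 153444 CPM, with libraries 5 and 6 highest and library 9 lowest. Without a covariate 0 genes of these lists were called. With the split term Hba-a1 (erythroid) was called higher and Cps1 (hepatocyte) lower at 29 °C than at 6 °C, and C1qc (macrophage), Hba-a1 and Hba-a2 higher at 29 °C than at 22 °C. In that fit 949 of all 15006 tested genes were called higher and 935 lower at 29 °C than at 6 °C. Called higher at 29 °C than at 22 °C were 234. The part of these cell types in the levels of the respiratory genes was not tested.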

How the data were processed

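The measurements are whole-number counts of reads per gene, deposited by the authors without normalization as a single table of 55421 genes. Tools named in the submitters' processing notes are STAR 2.6.1a, bcl2fastq and DESeq2 1.44.0, and the build is GRCm38. How reads were counted, and whether by strand, is not given in the sources used here.

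A model over all 12 libraries (3 group means, 9 residual degrees of freedom, no covariate) was fitted with edgeR 4.0.16 under R 4.3.3, after filterByExpr and TMM scaling, using robust quasi-likelihood. Tests were two-sided, with Benjamini-Hochberg adjustment over all 15006 tested genes, and the steps were tested on simulated data. The labels name no batch. Gene models came from GENCODE vM21 (38 of the 39 genes by identical identifier, exons merged), copies from blastn 2.17.0, and promoters from RefSeq (GRCm38.p6).

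Members and lists were chosen with earlier results of these data known. Values in every library are given for Sdhb, Uqcrb, Uqcr11 and Cox20, for called members, for the member with the largest fold change in each comparison, and for tissue-restricted isoforms. Alternatives were other scalings, no low-count filter, DESeq2 1.42.0, the 8 libraries compared, the split term, a Gm26917 covariate, and leaving out libraries.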

Additional observations from a re-analysis of the deposited data

Results flagged for a closer look

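Cox7a1 at 29 °C had a library set apart from the others: library 9 stood at 0.540 CPM against 0.910, 0.956 and 0.949 CPM in libraries 10 to 12. The gap was 0.889 of the group's range, above the 95% critical value of Dixon's test for 4 values. It was the only flag in 39 groups of 4 looked at (9 named genes and 4 sums at 3 temperatures), where chance flags about 1 in 20 groups. Cox7a1 held 109 counts in all, so its levels rest on few counts.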

How the results depend on the processing

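No paired analysis was possible because the libraries carry the numbers 1 to 12, each used once. Of 396 fold changes of 6 genes over 22 alternatives, 361 kept their direction and side of the threshold, 17 came to pass it, 10 ceased to and 8 changed sign. For 29 °C against 6 °C, 1 of the genes was called as reported, beside 379 of all genes. The count was 0 (331 of all genes) with library sizes taken without mitochondrial and the 10 most abundant genes, which moved the median of all genes by 0.11, and 0 (134) without libraries 3, 5 and 6. It was 3 (1182) with DESeq2, 8 (1884) with the split term, 6 (1504) in the libraries without H2-Ea-ps, 4 (555) with Gm26917 as covariate, 5 (1305) with the split term and no library 11, and 0 to 1 when each library was left out. For 29 °C against 22 °C (0 called) it was 4 (308) with DESeq2, 3 (516) with the split term, 0 (100) with the split term and no library 11, and 8 (2594) in the libraries without H2-Ea-ps. For 6 °C against 22 °C (0 called) it was 2 (167) with DESeq2 and 11 (1015) in the libraries without H2-Ea-ps, where 22 °C is libraries 5 and 6 alone. The fold change of Uqcr11 at 29 °C over 22 °C (-0.03) turned to 0.0232 with the split term, 0.15 in the libraries without H2-Ea-ps and 0.13 with the split term and no library 11, and ran from -0.11 to 0.10 when each library was left out. That of Uqcrb at 6 °C over 22 °C (-0.59) turned to 0.21 without libraries 3, 5 and 6. The cause was not tested. All-gene counts at 29 °C against 6 °C ran from 41 to 439 when each library was left out.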
